A study of Mus musculus with 3 samples.

Results

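Semaphorins and plexins, and ephrins and their Eph receptors, are guidance ligands and receptors, and 51 of the 48709 genes in the deposited count table belong to them. The members were all rows of the protein-coding class whose symbols begin with Sema and a digit, or name a plexin (Plxna to Plxnd), an Eph receptor (Epha or Ephb) or an ephrin (Efna or Efnb). The rule took 20 semaphorins, 9 plexins, 8 ephrins and 14 Eph receptors, and it used no measured value. The data are 3 RNA-seq libraries of sorted mouse lung cells. They form 1 group, titled wild type (WT) and labelled as smooth muscle. The mice were transgenic for a smooth muscle actin CreERT2, a Cre recombinase switched on by tamoxifen and driven by the promoter of that actin, and for tdTomato, a red fluorescent protein. All of them had received tamoxifen at 75 mg/kg daily for 10 days from 8 weeks of age, and lungs were dissociated and sorted 2 months later. No source used here gives the gate of the sort. With no second group, the question that the data answer is which members of these families were present in the sorted cells, at what level, and how far the 3 libraries differed. Nothing in the labels says that the libraries came from separate mice, so the spread between them may be technical.

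Semaphorins are secreted (class 3), membrane-spanning (classes 4 to 6) or lipid-anchored (class 7) proteins that bind plexins, and most secreted forms need a neuropilin coreceptor. Plexins act on small GTPases and the actin cytoskeleton, and semaphorin signals steer axons, growing vessels and migrating immune cells. Ephrins are tethered to the membrane, by a lipid anchor in the A class and by a transmembrane segment in the B class, and they activate Eph receptor tyrosine kinases on touching cells. Ephrin-B2 and EphB4 are known as marks of arteries and veins, and ephrin-B2 is also found in the mural cells around arteries.

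Library totals ran from 16877297 to 18896263 counts. A count of 0 allows up to 3 counts, or 0.159 to 0.178 counts per 1000000 counts of the library (CPM). These limits cover counting error only. In libraries 1, 2 and 3, 24939, 26207 and 30433 genes had a count. Defining markers of the labelled cell type were low: 7 smooth muscle markers summed to 84.9, 103 and 77.8 CPM in libraries 1, 2 and 3, and Cnn1, the smooth muscle calponin, had 0, 7 and 5 counts. In the same order, 8 lymphocyte markers summed to 855, 965 and 1010.1 CPM, 6 endothelial markers to 739, 432 and 554 CPM, and 5 fibroblast markers to 203, 427 and 428 CPM. The sum of 6 myeloid markers was 856, 260 and 343 CPM, and that of 6 epithelial markers, mostly the club cell gene Scgb1a1, was 14584, 2901 and 7953.5 CPM. Schwann cell and neuron markers were near 0, at 3.56 to 5.61 CPM for the sum of 5 genes. In such bulk samples fewer cells of a type and less RNA per cell cannot be told apart, and no member could be assigned to a cell type. Levels are compared between genes as CPM per kilobase of annotated exon (CPM/kb).

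Most members were detected. A mean of at least 1 CPM was reached by 41 of 51 members (80.4%), against 59.4% of 22005 nuclear protein-coding genes, and at least 10 CPM by 21 (41.2%), against 35.8%. Only Sema4d had a mean of at least 100 CPM; at that level Sema3c joined it without library 2. No member lacked counts in all of the 3 libraries. By family, 19 of 20 semaphorins, 9 of 9 plexins, 5 of 8 ephrins and 8 of 14 Eph receptors reached 1 CPM. The shares at 1 and 10 CPM are not divided by length, so exon length bears on them. The median member had 6.02 CPM and the median nuclear protein-coding gene 3.19. Per kilobase these medians were closer, at 0.968 CPM/kb for members and 0.858 for nuclear protein-coding genes. Summed per family, semaphorins had 74.3 ± 12.4 CPM/kb, plexins 20.0 ± 1.34, ephrins 15.8 ± 4.16 and Eph receptors 12.8 ± 2.68 (SD, n = 3). The semaphorin sum was 3.69-fold the plexin sum, a log2 ratio of 1.88 ± 0.14 within libraries. Ephrins and Eph receptors were close to each other, with a log2 ratio of 0.30 ± 0.18.

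**Figure D1:**
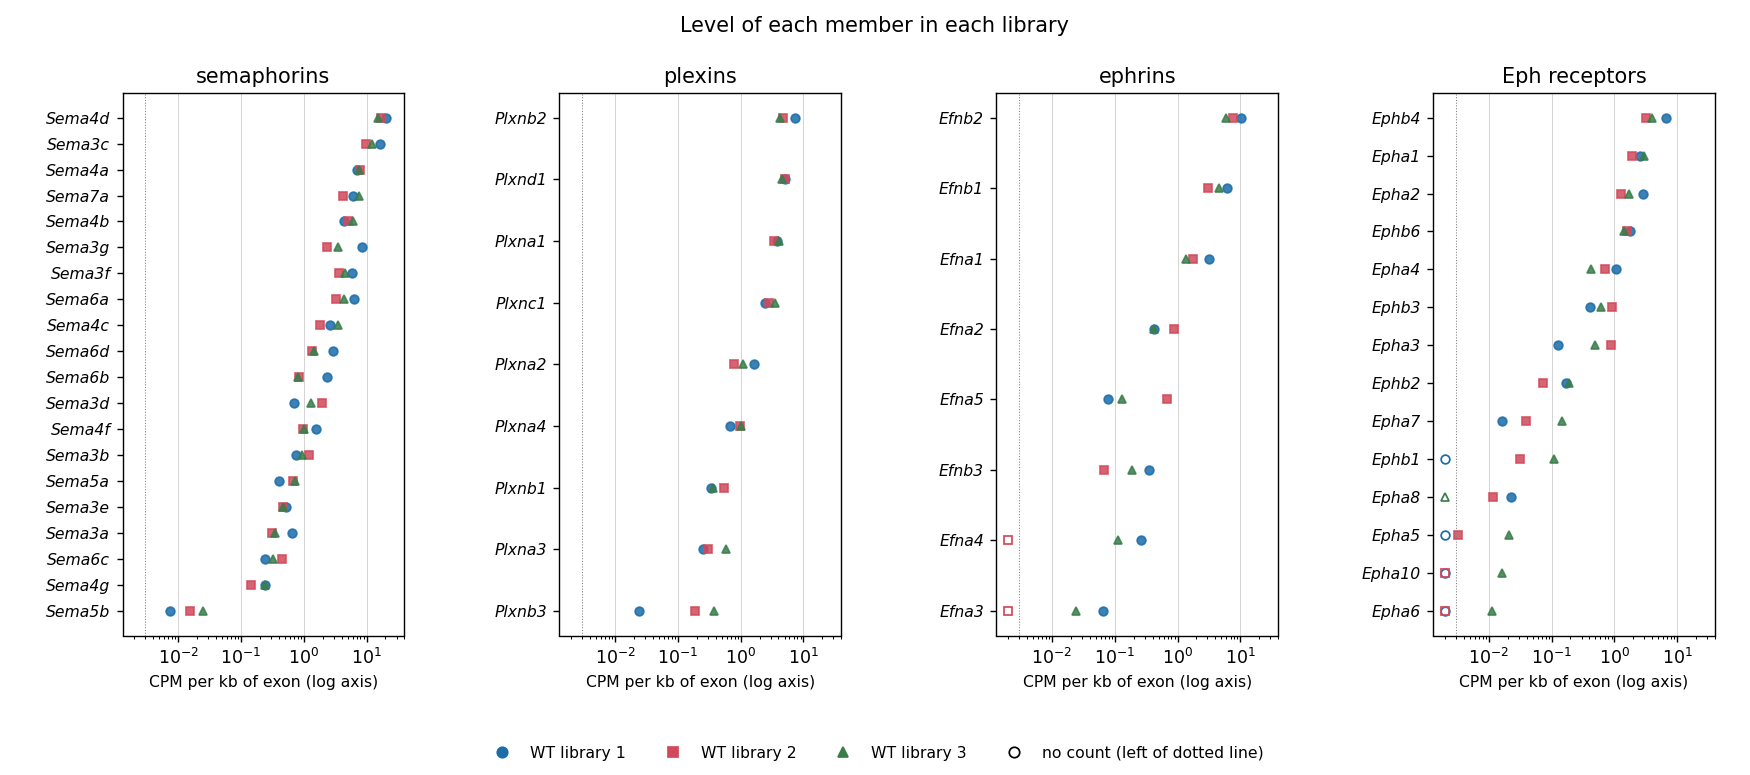
Level of each of the 51 members in WT libraries 1 to 3, as CPM per kilobase of exon on a log axis, in 1 panel per family with members ordered by their mean. Open symbols left of the dotted line are libraries with no count. Sema4d leads at 15.1 to 20.1 CPM/kb, and the lowest Eph receptors have counts in 1 or 2 libraries.

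Sema4d, a class 4 semaphorin that is abundant on T cells and binds plexin-B1, plexin-B2 and, on B cells, CD72, was the highest member (ENSMUSG00000021451, chromosome 13, 51701246 to 51793747). It had 20.1, 16.9 and 15.1 CPM/kb in libraries 1, 2 and 3, a mean of 17.3 ± 2.49, and ranked 1507 from the top among nuclear protein-coding genes. Its values were above those of every other member in each library. The next was Sema3c, a secreted ligand with roles in heart outflow, vessel and lung development (ENSMUSG00000028780, chromosome 5, 17574281 to 17730268), with 16.5, 9.71 and 12.1 CPM/kb. Sema3c lay below Sema4d and above the next member in each of the 3 libraries. These 2 genes took 23.5% ± 2.90 and 17.0% ± 1.73 of the semaphorin sum. For comparison, the smooth muscle actin gene Acta2, whose promoter names the Cre transgene, had 5.08, 7.76 and 5.15 CPM/kb, below Sema4d and Sema3c in each library.

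By their means the next semaphorins were membrane-bound ones known from immune cells, but in library 1 Sema3g was above all of them, at 8.44 CPM/kb. Sema4a, a class 4 protein of dendritic cells, B cells and activated T cells (chromosome 3, 88435959 to 88461182), had 7.08, 7.82 and 7.63 CPM/kb, and its libraries did not differ beyond counting error. Sema7a, the lipid-anchored member that binds plexin-C1 and integrin beta 1 (chromosome 9, 57940113 to 57962864), had 6.13, 4.29 and 7.62 CPM/kb. Sema4b (chromosome 7, 80186841 to 80226527) had 4.33, 5.01 and 6.01 CPM/kb. Means of Sema4b, Sema3g, Sema3f and Sema6a lay close together, at 5.12, 4.76, 4.69 and 4.62 CPM/kb. Library 3 was highest for both Sema7a and Sema4b, but the libraries of Sema7a spread more widely. Class 4 summed to 34.0 ± 1.67 CPM/kb, and Sema4d made up 50.9% ± 5.43 of it. Sema4c had 2.66 ± 0.855 CPM/kb and shares 334 exon bases with a gene on the other strand, D430040D24Rik, so its level is uncertain because the strand setting of the counting is not known here. Sema4f and Sema4g stood at 1.19 ± 0.322 and 0.210 ± 0.0562 CPM/kb.

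The secreted class 3 semaphorins summed to 33.5, 19.6 and 23.2 CPM/kb, and Sema3c was 50.3% ± 1.61 of that sum. Class 4 exceeded class 3 by a log2 ratio of 0.10, 0.74 and 0.53 in libraries 1, 2 and 3, so the gap was smallest in library 1. Sema3g, a semaphorin known from arterial endothelium (chromosome 14, 31217860 to 31230350), had 8.44, 2.35 and 3.48 CPM/kb. Library 1 stood apart here, with 724 counts against 196 and 267. Sema3f, a ligand of neuropilin-2 that repels endothelial cells, had 5.94, 3.59 and 4.56 CPM/kb, again with library 1 on top. Sema3d went the other way, with 0.708, 1.92 and 1.30 CPM/kb and its lowest value in library 1. Sema3b, Sema3e and Sema3a were lower, at 0.968 ± 0.236, 0.488 ± 0.0361 and 0.436 ± 0.185 CPM/kb.

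Class 6 membrane semaphorins, which bind plexin-A proteins, were led by Sema6a with 6.21, 3.31 and 4.34 CPM/kb. Sema6d followed with 2.88, 1.35 and 1.48 CPM/kb and Sema6b with 1.33 ± 0.861 as the mean, and all 3 were highest in library 1. Sema6c had only 0.340 ± 0.105 CPM/kb. Of class 5, which carries thrombospondin repeats, Sema5a had 0.598 ± 0.175 CPM/kb. Sema5b, the lowest semaphorin, had 1, 2 and 3 counts.

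Among plexins, Plxnb2 was the highest on average (ENSMUSG00000036606, chromosome 15, 89155549 to 89171120). It encodes plexin-B2, a widely expressed receptor for class 4 semaphorins, and had 7.23, 4.80 and 4.23 CPM/kb. Plxnd1, the receptor of Sema3e in endothelium (ENSMUSG00000030123, chromosome 6, 115954811 to 115995005), had 5.04, 5.02 and 4.52 CPM/kb. Plxnb2 was above Plxnd1 only in library 1, so their order is not settled, and Plxnd1 had the narrower range. Plxna1, which signals with neuropilin or Trem2 partners (chromosome 6, 89316314 to 89362620), had 3.81, 3.36 and 4.09 CPM/kb, and Plxnc1, the Sema7a receptor of myeloid and lymphoid cells, had 2.44, 2.82 and 3.53. These 4 genes took 26.9%, 24.4%, 18.8% and 14.8% of the plexin sum. The other 5 plexins had between 0.194 and 1.16 CPM/kb as means, with Plxna2 and Plxna4 above Plxnb1, Plxna3 and Plxnb3. Plxna1 shares 970 exon bases (10.7% of its exons) with an antisense gene that had at most 14 counts. Because the strand setting of the counting is not known here, the level of Plxna1 is uncertain as well.

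**Figure D2:**
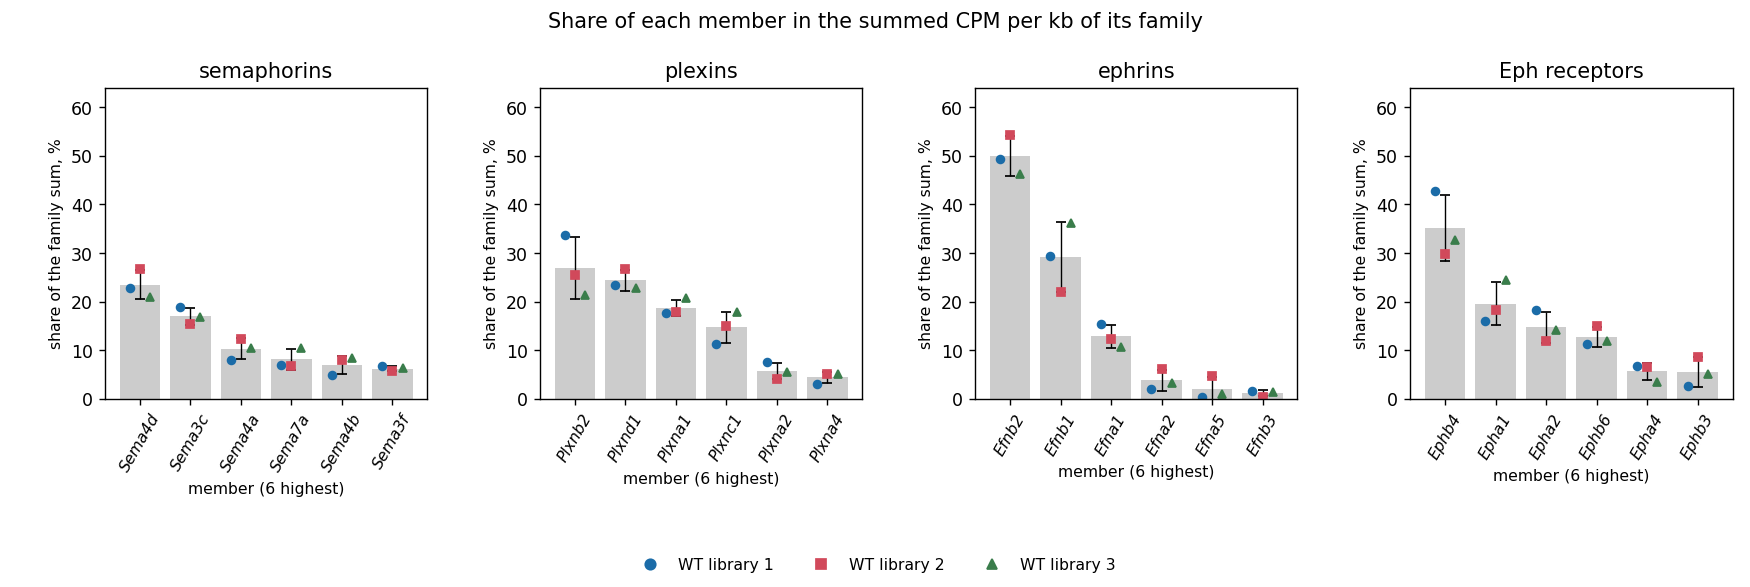
Share of each of the 6 highest members in the summed CPM per kilobase of its family, in percent. Bars are means, error bars SD over 3 libraries, and points the single libraries. Efnb2 is 46.2% to 54.4% of the ephrins, and no semaphorin passes 26.7%.

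Ephrins were mostly of the B class, whose sum of 12.7 ± 3.32 CPM/kb exceeded that of the A class, 3.12 ± 0.996, by a log2 ratio of 2.05 ± 0.33. Efnb2, encoding ephrin-B2 (ENSMUSG00000001300, chromosome 8, 8617434 to 8661242), had 10.1, 7.72 and 5.88 CPM/kb and made up 49.99% ± 4.09 of the ephrin sum. Efnb1, encoding ephrin-B1 of fibroblasts, epithelia and lymphocytes (chromosome X, 99136130 to 99148991), had 6.04, 3.11 and 4.60 CPM/kb. Both were highest in library 1, and Efnb2 was above Efnb1 in each library. Efna1, a ligand of EphA2 that tumour necrosis factor induces in endothelium, led the A class with 3.18, 1.76 and 1.36 CPM/kb. Efna2 stood at 0.569 ± 0.260 CPM/kb. The counts of Efna5 were 6, 50 and 9, so that library 2 held most of them. Efnb3 had 21, 4 and 10 counts, Efna4 8, 0 and 3, and Efna3 3, 0 and 1. Efna4 shares 168 exon bases with 4731419I09Rik on the other strand, which had 26, 2 and 5 counts, so its counts and its highest library are uncertain. The 0 counts of Efna3 and Efna4 in library 2 allow up to 0.163 CPM.

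Of the Eph receptors, Ephb4, the main ephrin-B2 receptor of veins (ENSMUSG00000029710, chromosome 5, 137350109 to 137378669), was the highest with 6.74, 3.16 and 3.91 CPM/kb. It took 35.1% ± 6.80 of the receptor sum, and library 1 was well above the others. Epha1, an epithelial receptor (chromosome 6, 42358487 to 42373268), had 2.53, 1.93 and 2.93 CPM/kb. It shares 236 exon bases with Zyx on the other strand, which had 3110, 2452 and 2636 counts against the 188, 139 and 194 of Epha1, so the level of Epha1 is uncertain. Epha2, the ephrin-A1 receptor of epithelium and endothelium, had 2.88, 1.26 and 1.69 CPM/kb. Ephb6, a receptor without kinase activity that T cells express, had 1.78, 1.59 and 1.41 CPM/kb. Its libraries narrowly missed the 0.05 cut for differing beyond counting error (adjusted p = 0.054, chi-square test), and they passed it without library 2. EphB receptors as a class summed to 7.03 ± 1.80 CPM/kb and EphA receptors to 5.73 ± 0.922, with EphB higher in each library.

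Epha4, Ephb3, Epha3 and Ephb2 formed a lower tier, at 0.734 ± 0.327, 0.647 ± 0.258, 0.497 ± 0.372 and 0.145 ± 0.0620 CPM/kb. Epha3, a receptor of mesenchymal cells, had 21, 139 and 72 counts, and Epha4, a receptor that binds ephrins of both classes, 164, 103 and 58. Library 1 was thus lowest for Epha3 and highest for Epha4. The other 6 receptors, Epha5, Epha6, Epha7, Epha8, Epha10 and Ephb1, which are best known from neurons or embryonic tissue, had means under 1 CPM. Of these, Epha7 had 3, 7 and 24 counts and Ephb1 0, 4 and 13, and the others had at most 6 counts in any library. For Epha6 the only count was in library 3, and for Epha10 the only 2. Library 3 also had the most genes with a count.

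Promoter sequences are shown for the leading ligand and receptor of the ephrin system, Efnb2 and Ephb4, and for Sema3g and Epha3, whose libraries spread widely and in opposite ways. They are RefSeq sequences of GRCm38.p6 and end at the base before the annotated start or, for Sema3g, 13 bases earlier to leave out exon sequence. Each is printed 5′ to 3′ on the strand of the gene, with capitals for GC boxes (GGGCGG or, on the other strand, CCGCCC) and for TATAAA or its reverse complement TTTATA.
Efnb2 (chr8:8661243-8661492, minus strand): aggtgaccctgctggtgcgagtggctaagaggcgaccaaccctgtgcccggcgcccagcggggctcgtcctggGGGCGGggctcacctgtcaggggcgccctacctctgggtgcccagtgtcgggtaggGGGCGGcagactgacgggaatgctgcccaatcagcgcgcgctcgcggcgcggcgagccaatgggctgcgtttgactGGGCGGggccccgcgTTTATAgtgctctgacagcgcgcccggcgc
Ephb4 (chr5:137349859-137350108, plus strand): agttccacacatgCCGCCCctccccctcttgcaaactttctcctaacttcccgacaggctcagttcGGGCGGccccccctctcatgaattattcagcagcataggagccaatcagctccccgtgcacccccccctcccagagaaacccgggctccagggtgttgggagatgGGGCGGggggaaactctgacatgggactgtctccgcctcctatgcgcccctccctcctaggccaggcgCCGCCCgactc
Sema3g (chr14:31217623-31217859, plus strand): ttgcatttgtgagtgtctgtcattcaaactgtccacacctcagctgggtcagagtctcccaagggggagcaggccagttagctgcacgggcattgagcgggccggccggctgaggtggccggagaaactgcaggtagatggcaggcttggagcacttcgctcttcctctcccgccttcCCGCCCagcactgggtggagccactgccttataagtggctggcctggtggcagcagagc
Epha3 (chr16:63864176-63864425, minus strand): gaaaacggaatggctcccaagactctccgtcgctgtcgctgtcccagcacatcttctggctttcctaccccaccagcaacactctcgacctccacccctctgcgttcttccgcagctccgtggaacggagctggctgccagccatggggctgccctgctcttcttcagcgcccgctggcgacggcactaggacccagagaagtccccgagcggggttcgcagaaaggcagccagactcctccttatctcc
Within these stretches Efnb2 had 3 GC boxes and a TATA match, Ephb4 had 4 GC boxes, Sema3g had 1, and Epha3 had none. The letters CCGGAA, the core bound by ETS factors, were in none of the 4 stretches on either strand.

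RefSeq promoter entries matched 45 members by symbol, with 59 start sites; Efnb3, Plxna1, Plxna4, Sema3b, Sema3f and Sema6a were not matched. In the 250 bases before the start, 74.6% of members' promoters held a GC box on either strand, against 44.0% of 19717 promoters of genes listed as protein-coding and 32.7% of all 32851 promoters. The median number of CG dinucleotides was 16, against 10 for the protein-coding promoters. TATAAA, also sought on either strand, was found at 1 of 59 promoters, that of Efnb2, at 11.2% of the protein-coding promoters and at 12.4% of all. The match of Efnb2 was the reverse complement TTTATA on the strand of the gene. The ETS core, on either strand as well, was at 10.2% of members' promoters, 15.3% of protein-coding ones and 12.0% of all. CANNTG, the E-box, was at 49.2%, 62.5% and 66.2%. Promoters of members with a mean of at least 1 CPM held a GC box in 75.0% (36 of 48). Those of members under 1 CPM held one in 72.7%, but these were only 8 of 11 promoters, and the difference was not tested. GC boxes and CG dinucleotides both count G and C bases, and start sites of 1 gene can overlap.

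Pairs of ligands, receptors and related genes were compared as log2 ratios of counts per kilobase inside each library, with 0.5 counts added. Of 14 pairs, 13 had 1 sign in the 3 libraries. The smallest two-sided p of an exact permutation of signs over 3 libraries is 0.25, so ratios have an SD and no test. Efnb2 exceeded its receptor Ephb4 by 0.59, 1.29 and 0.59, a mean of 0.82 ± 0.40, and Efnb1 lay below Efnb2 at -0.80 ± 0.48. Efna1 and its receptor Epha2 had no common sign, at 0.15, 0.49 and -0.30, and without library 2 the mean changed sign to -0.075. Among receptors, Ephb6 lay below Ephb4 at -1.45 ± 0.46 and Epha4 below Epha2 at -1.41 ± 0.56.

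In the semaphorin system Sema3e lay below its receptor Plxnd1 at -3.31 ± 0.09, which leaves the ligand 9.90-fold below the receptor per kilobase. Sema4d exceeded Plxnb2 by 1.71 ± 0.21 and Sema7a exceeded Plxnc1 by 1.02 ± 0.37. Between ligands, Sema4a lay below Sema4d at -1.20 ± 0.27 and Sema6a above Sema6d at 1.32 ± 0.22. Sema3c exceeded Sema3f by 1.47, 1.44 and 1.41, the narrowest spread of the 14 pairs, although each gene alone differed between libraries. Plxnb2 exceeded Plxnb1, the plexin first known as a Sema4d receptor, by 3.70 ± 0.63, and Plxna2 lay below Plxna1 at -1.75 ± 0.45. Nrp1, the coreceptor of most class 3 semaphorins, had 8.55, 7.15 and 8.90 CPM/kb and exceeded Nrp2 by 2.18 ± 0.20. Not divided by length, the Sema7a to Plxnc1 ratio was -0.32, since Plxnc1 has 8349 exon bases and Sema7a 3298.

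**Figure D3:**
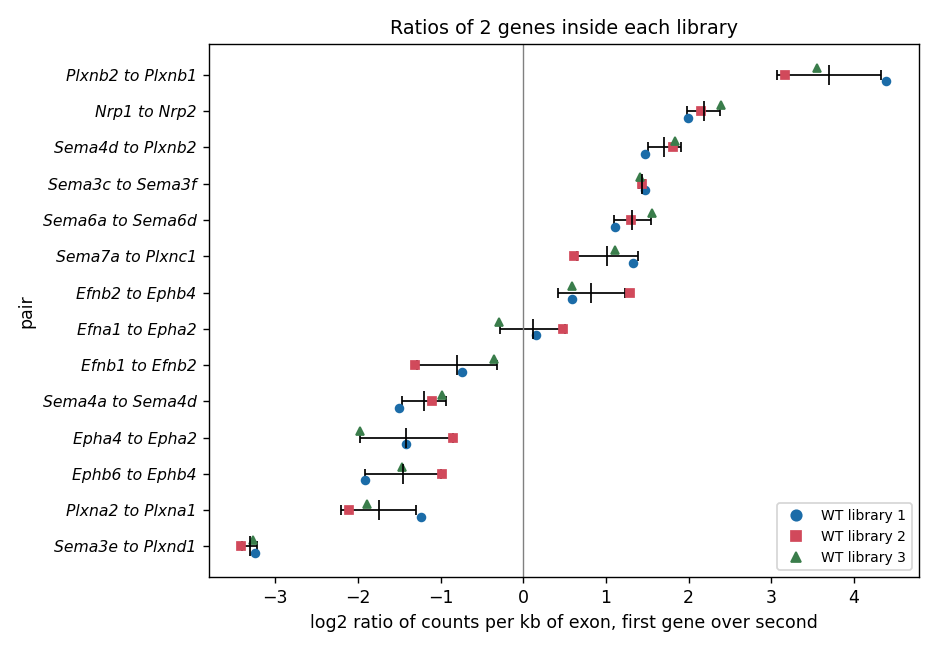
Log2 ratio of counts per kilobase of exon, first gene over second, for 14 pairs. Points are the 3 libraries, the vertical tick is the mean and the bar the SD. Efna1 to Epha2 is the pair whose libraries fall on both sides of 0, and Sema3e to Plxnd1 is the lowest at -3.31.

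The libraries were then compared with each other, with a chi-square test of homogeneity per gene and Benjamini-Hochberg adjustment over all 23317 genes with at least 10 counts. It asks whether libraries differ by more than counting error, not whether conditions differ. Of 45 members tested, 41 differed at an adjusted p under 0.05, where 70.0% of all genes tested did and 73.1% of the nuclear protein-coding ones. The 4 tested members that did not pass were Sema4a, Sema3e, Sema4g and Ephb6, and Epha5, Epha6, Epha8, Epha10, Efna3 and Sema5b had too few counts to test. Calls grow with depth: among members with at least 1000 counts 15 of 16 passed, against 80.9% of nuclear protein-coding genes of that depth, and among those with 100 to under 1000 counts 18 of 20 passed, against 70.2%. The count of members called was 24 without library 1, where 38.2% of all genes were called, 29 without library 2, where 53.4% were, and 34 without library 3, where 56.8% were. For the 36 members with at least 100 counts, the highest library was a median of 1.79-fold above the lowest, against 1.36-fold for 12004 nuclear protein-coding genes with that many counts. These figures describe the list, and the difference from other genes was not tested.

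Library 1 was the highest for 22 of the 41 members called, or 48.9% of the 45 tested, where 29.8% of nuclear protein-coding genes were called and highest there. With library totals in place of TMM scaling the set had 19 members, against 22.1% of nuclear protein-coding genes: Plxna1 and Ephb2 were then highest in library 3, and Plxnd1 was no longer called. The other 19 were Efnb1, Efnb2, Efnb3, Efna1, Efna4, Ephb4, Epha2, Epha4, Plxna2, Plxnb2, Sema3a, Sema3c, Sema3f, Sema3g, Sema4d, Sema4f, Sema6a, Sema6b and Sema6d. The widest of them with at least 100 counts was Sema3g, where library 1 was 3.71-fold above library 2 (adjusted p = 8.7e-90, chi-square test). Sema6b spread by 3.18-fold, Epha4 by 2.84-fold, Efna1 by 2.63-fold, Epha2 by 2.36-fold, Sema6d and Ephb4 by 2.21-fold and Plxna2 by 2.14-fold. Sema4d and Plxnd1 moved less, by 1.49-fold and 1.26-fold.

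Markers of several cell types were also highest in library 1. With TMM scaling all 6 endothelial markers were called and highest there, and with library totals 5, since Kdr was then highest in library 3. Among them were Cdh5, the cadherin of endothelial junctions, at 245, 122 and 160 CPM and the angiopoietin receptor Tek at 59.2, 20.3 and 29.4 CPM. All 6 epithelial markers and 5 of 6 myeloid markers were called and highest there too with TMM scaling, and 6 and 4 with library totals, such as the surfactant gene Sftpc at 1352.5, 246 and 284 CPM and the lysozyme gene Lyz2 at 704, 189 and 235 CPM. The 8 lymphocyte markers were split, with 3 highest in library 1, 1 in library 2 and 4 in library 3. Cd3e and Cd8a were highest in library 1, Cd4 in library 2, and Cd79a, Ms4a1 and Nkg7 in library 3. Of the members highest in library 1, Efnb2 and Sema4d were next highest in library 2, and Ephb4, Sema3g, Sema3c and Sema6a in library 3. Both orders occurred among the markers as well. Cdh5, Tek, Sftpc and Lyz2 were next highest in library 3, as were, with TMM scaling, the other endothelial and most epithelial and myeloid markers. Epcam, Foxj1 and Marco were next highest in library 2, with 96, 20 and 22 counts there and 80, 16 and 8 in library 3. Library 2 was also next highest for Cd3e (153, 147 and 98.1 CPM), Cd3g (157, 150 and 93.1) and Cd8a (103, 75.5 and 62.0). The part of these cells in the members' values was not tested.

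Library 2 was the highest for 10 members called, or 22.2% of those tested, the same share as among nuclear protein-coding genes. They were Epha3, Ephb3, Efna2, Efna5, Plxna4, Plxnb1, Sema3b, Sema3d, Sema5a and Sema6c, and with library totals, which leave 8 against 17.7% of those genes, Plxna4 and Sema5a were highest in library 3. Epha3 had 6.59-fold more in library 2 than in library 1 (adjusted p = 3.6e-19, chi-square test), Efna5 8.30-fold, Sema3d 2.62-fold and Ephb3 2.19-fold. In all 10 except Plxnb1 and Efna2 the lowest library was library 1. The 5 fibroblast markers were lowest in library 1 as well, with Col1a1 at 83.7, 196.5 and 178 CPM and Lum, a matrix proteoglycan, at 15.7, 34.2 and 28.1 CPM. With TMM scaling 3 of them were highest in library 2 and 2 in library 3, and with library totals 2 and 3. Those highest in library 3 included Pdgfra at 34.4, 60.3 and 70.1 CPM and Tcf21 at 1.64, 4.36 and 9.72 CPM. The smooth muscle genes Acta2, Myh11 and Des were called and highest in library 2, at 17.1, 32.2 and 15.9 CPM there. Of the other smooth muscle markers, Smtn had 22.0, 12.3 and 13.2 CPM and Tagln 20.0, 20.4 and 16.2 CPM; both were called and highest in library 1 with TMM scaling, and Tagln was highest in library 2 with library totals. Whether these cells bear on the members was not tested.

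Library 3 was the highest for 9 members called, or 20.0% of those tested, where 21.0% of nuclear protein-coding genes were. With library totals there were 13, or 28.9%, where 35.9% of nuclear protein-coding genes were, and Ephb2, Plxna1, Plxna4 and Sema5a joined. In Sema4b, Sema4c, Sema7a, Plxnc1 and Epha1 the spread was 1.23-fold to 1.78-fold. Plxna3 had 37, 43 and 77 counts and Plxnb3, a plexin of glia, 3, 22 and 41. The B cell markers Cd79a and Ms4a1, the lymphocyte marker Nkg7, the myeloid integrin Itgam and the fibroblast markers Pdgfra and Tcf21 were also highest in library 3. With TMM scaling the other 5 myeloid markers were highest in library 1 and the other 3 fibroblast markers in library 2. Of the 8 lymphocyte markers, 3 were highest in library 1 and 1 in library 2. The part of these markers in the members' values was not tested.

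**Figure D4:**
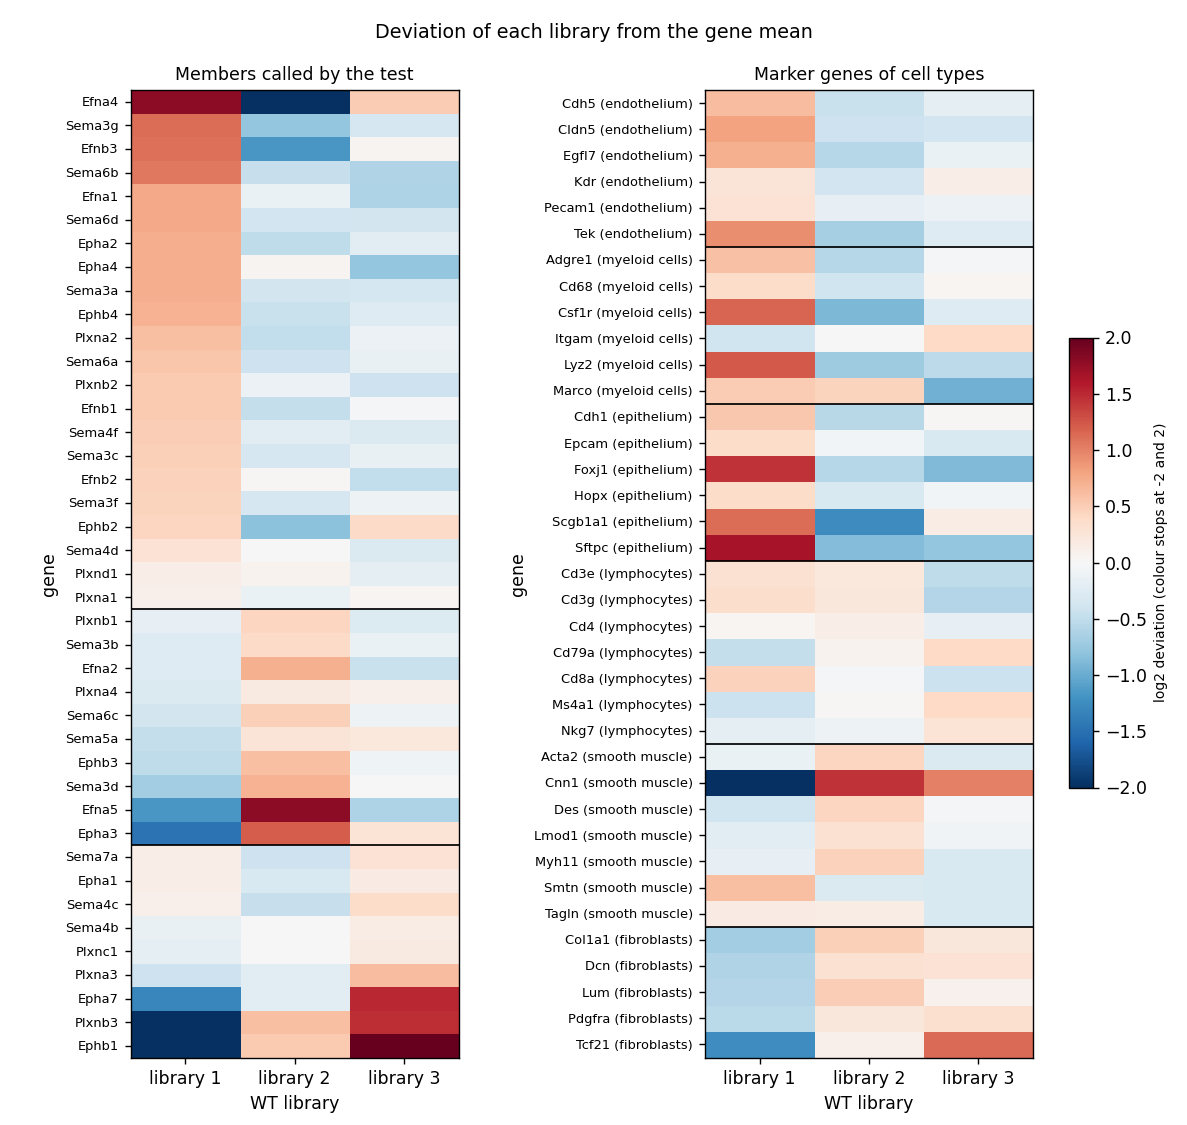
Deviation of each WT library from the mean of the gene, as log2 counts with 0.5 added and scaled by TMM, for the 41 members called (left, divided by the library in which they were highest) and for marker genes of 6 cell types (right). Red is above and blue below the mean, and the colour stops at -2 and 2. The first block of 22 members is red in library 1, as are the endothelial and epithelial markers (with library totals Plxna1, Ephb2 and Kdr would be highest in library 3), and fibroblast markers are blue there.

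Partners outside the 4 families were taken from a list of 52 coreceptors and effectors in 3 roles. Of nuclear protein-coding genes, 59.4% had a mean of at least 1 CPM. Of 11 semaphorin coreceptors, 10 had a mean of at least 1 CPM and 11 differed between libraries, beside 70.0% of all genes. With TMM scaling 9 of the 11 (81.8%) were highest in library 1 and with library totals 6 (54.5%). Itgb1, Kdr and Nrp1 were then highest in library 3. Among nuclear protein-coding genes 29.8% and 22.1% were called and highest in library 1 with these 2 scalings. Integrin beta 1, Itgb1, which Sema7a binds, had 56.9 ± 9.68 CPM/kb, the DAP12 adaptor Tyrobp 53.4 ± 15.2 and the VEGF receptor Kdr, also among the endothelial markers, 10.9 ± 2.47. Cd72, the B cell receptor of Sema4d, had 18.9, 34.9 and 43.8 CPM and was highest in library 3, unlike Sema4d. Trem2 had 41, 0 and 11 counts.

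Of 20 semaphorin and plexin effectors, 19 had a mean of at least 1 CPM and 13 (65.0%) differed between libraries, beside 70.0% of all genes. With TMM scaling 7 of them were highest in library 1 and with library totals 4. Cofilin, Cfl1, the actin-severing protein that these signals regulate, had 130.1 ± 0.400 CPM/kb on library totals; it was called with TMM scaling, at a spread of 1.13-fold. The CRMP2 gene Dpysl2 had 25.8 ± 1.84 CPM/kb and Ranbp9 12.1 ± 1.48. Of 21 Eph and ephrin effectors, 20 had a mean of at least 1 CPM and 17 (81.0%) differed, beside the same 70.0% of all genes. With TMM scaling 7 of the 21 (33.3%) were called and highest in library 1 and 8 (38.1%) in library 2. Among nuclear protein-coding genes these shares were 29.8% and 22.2%. With library totals the counts were 4 (19.0%) and 5 (23.8%), beside 22.1% and 17.7%. The Src family kinase Fyn had 45.9 ± 1.59 CPM/kb, the protease Adam10, which cleaves ephrins, 17.8 ± 0.426 and the Ras regulator Rasa1 12.7 ± 1.82. The ephexin Arhgef15, known from endothelium, had 27.4, 12.5 and 18.7 CPM.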

How the data were processed

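RNA of 3 WT libraries was analysed from the authors' deposited table of raw counts per gene (whole numbers). The tools in the submitters' processing notes are STAR 2.6.1d, Trimmomatic 0.38, featureCounts 1.6.3, DESeq2 1.18.1 and FastQC, with no order or settings. The builds in those notes, GRCh38 and hg38, are human, but the table's IDs are mouse. All 51 members have an ID in GENCODE M21 (GRCm38), 44 with identical coordinates. Per the labels' protocols the libraries are stranded total RNA; no source used here gives the strand setting of counting. Columns named as controls 1 to 3 were assigned to WT 1 to 3 by number.

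CPM used library totals, and exon lengths are unions of GENCODE exons. The chi-square test used library sizes scaled by TMM (factors 0.951, 0.983 and 1.07) from edgeR 4.0.16 in R 4.3.3. On simulated data for 3 libraries (22839 genes), it recovered 70.1% of genes changed 1.5-fold, 97.0% at 2-fold and 100% at 4-fold, and 11 of 189 calls were unchanged genes. The simulated counts had counting error alone, and each changed gene had at least 100 counts and was changed in 1 library. These rates therefore need not hold for the real libraries or for members with fewer counts. Alternatives were DESeq2 1.42.0 size factors, other totals, filters and added counts, and leaving out each library. Of members' 50-base words in GENCODE transcripts, at most 8.14% occurred in another gene. Members, lists and pairs were chosen with earlier results of these data known. Values in each library are given for the 5 semaphorins, 3 plexins, 3 ephrins and 4 Eph receptors with the highest mean CPM/kb, for genes in pairs and for members without a count, and pathway genes are the 3 highest of each role; other genes with values in each library were chosen after their values were seen. The values of 1 marker gene are not reported here, although the sum over its list includes it.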

Additional observations from a re-analysis of the deposited data

How the results depend on the processing

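The number of members at 100 CPM was 2 with the counts of nuclear protein-coding genes as the total and 1 to 2 with 1 library left out. The number that differed between libraries was 24 to 34 with 1 library left out, all but Ephb6 from the 41 of all libraries, while 38.2% to 56.8% of all genes differed. It was 41 with DESeq2 size factors (70.1% of all genes), 40 with library totals (72.1%), where Plxnd1 was lost, and 41 with a minimum of 1 count (53.3%), where Epha5 replaced Sema6c. Library totals for the marker and pathway lists were chosen after seeing the data. Not divided by length, Sema4d took 27.6% of semaphorin counts and Efnb2 70.0% of ephrin counts, the Efna1 to Epha2 ratio was -1.24, and that of Sema7a to Plxnc1 -0.32. Leaving out 1 library moved the Efna1 to Epha2 ratio between -0.075 and 0.32. Adding 3 counts moved no ratio past its SD. No paired analysis was possible because the labels hold 1 group. Depth limits the members with under 10 counts over all libraries, and precision rests on 3 libraries.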

Other observations

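Several members are neighbours on a chromosome, and some neighbours differed in level. On chromosome 3, Efna1, Efna3 and Efna4 lie in a row from 89271733 to 89338028 with gaps of 32.8 and 10.4 kb, yet they had 2.10, 0.0299 and 0.125 CPM/kb. On chromosome 9, Sema3b and Sema3f are 72.3 kb apart and had 0.968 and 4.69 CPM/kb. Ephb2 and Epha8 on chromosome 4 are 93.4 kb apart, at 0.145 and 0.0113 CPM/kb, but Epha8 had only 2, 1 and 0 counts. Sema3d, Sema3a and Sema3e follow each other on chromosome 5 with gaps of 536.5 and 422.7 kb, at 1.31, 0.436 and 0.488 CPM/kb. Sema3a and Sema3e were close to each other, with Sema3a higher only in library 1. Sema3c lies on the same chromosome at 12.8 CPM/kb. Chromosomes 5 and 6 hold 6 members each.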
